A study of Drosophila melanogaster with 46 samples.

Results

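Mitochondrial ribosomal protein genes were taken as the protein-coding genes of the fly annotation whose symbol begins with mRpL or mRpS, and 73 of the 13946 protein-coding genes met this rule. They comprise 47 mRpL genes, named for proteins of the large subunit, and 26 mRpS genes, named for proteins of the small subunit. The rule used names only and no binding value. A gene was called bound when a peak of a list lay within 500 bp of either of its ends.

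The peaks come from chromatin immunoprecipitation sequencing (ChIP-seq) of whole Drosophila melanogaster of the strain y1w1118. The lists used are those for CTCF, Pita and Su(Hw) in adults and in larvae of the genotype labelled dCTCFwt, and 1 list for CP190 in larvae whose name gives no genotype. By the labels 2 samples each exist for adult CTCF, adult Pita, adult Su(Hw), larval Pita and larval Su(Hw), and 4 each for larval CTCF and wild-type larval CP190. CTCF was precipitated through an HA tag. Of the 18 CP190 samples 14 are from larvae labelled dCTCFdeltaCP, alone or with Pita deltaCP1, SuHw delta114 or both, so the CP190 list may hold peaks of mutant larvae. No list is named for a mutant, and mutants were not compared here. Whole animals mix all tissues, and the labels give no sex.

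The mitochondrial ribosome makes the few proteins that are encoded in mitochondrial DNA, all of them parts of the respiratory chain or of ATP synthase. Its RNAs come from the mitochondrial genome, while all of its proteins are encoded in the nucleus, made in the cytosol and imported, so its assembly depends on many scattered nuclear genes. CTCF, Pita and Su(Hw), often called architectural proteins, each bind DNA through an array of C2H2 zinc fingers, and CP190 is a cofactor that such proteins recruit to insulators and promoters. The series title asks how C2H2 proteins cooperate in bringing CP190 to regulatory elements. Each peak has 1 deposited fold enrichment over the authors' control and no replicate values, so there is no error between animals, and the counts that follow are descriptions without a test.

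At these genes CP190 was the most frequent protein, Pita the second, CTCF rare, and Su(Hw) was at none. In larvae CP190 was at 32 of the 73 genes (43.8%), where 35.7% of all protein-coding genes were bound. Pita was at 14 genes in adults (19.2%), against 11.1% of all protein-coding genes, and at 14 genes in larvae (19.2%), against 10.5%. CTCF was at 2 genes at each stage (2.74%), where the shares over all protein-coding genes were 4.09% in adults and 5.19% in larvae. Su(Hw) was at 0 of 73 genes at both stages, against 7.23% of all protein-coding genes in adults and 8.46% in larvae, and its nearest peak to any of these genes was 1141 bp away in adults and 1156 bp away in larvae. At least 1 list bound 40 of the 73 genes (54.8%), against 42.1% of all protein-coding genes.

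**Figure D1:**
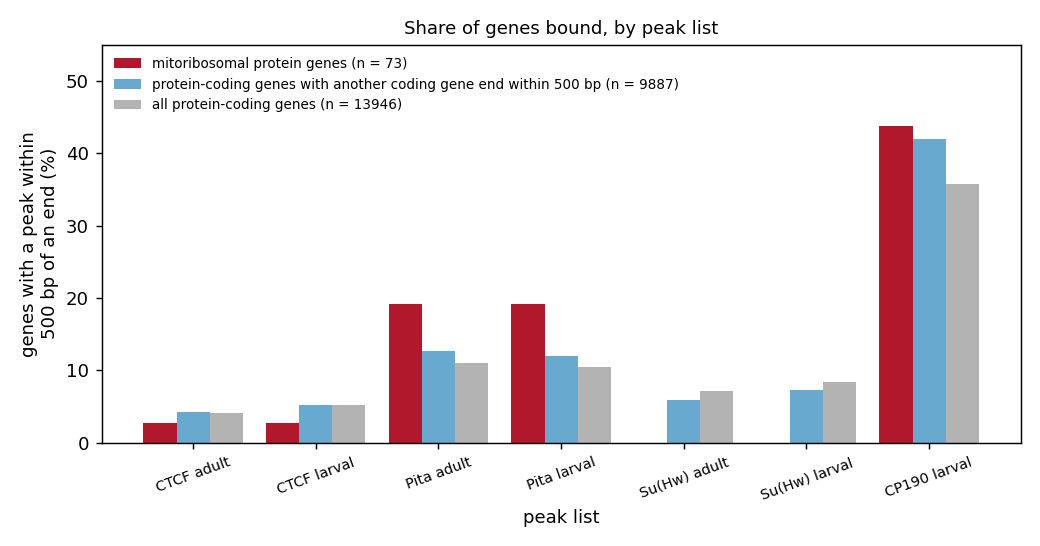
Percent of genes with a peak within 500 bp of an end (vertical axis) in each peak list (horizontal axis) for the 73 mitochondrial ribosomal protein genes (red), the 9887 protein-coding genes that have an end of another coding gene within 500 bp (blue) and all 13946 protein-coding genes (grey). The red bars reach 43.8% for CP190 and 19.2% for Pita at both stages, and are 0 for Su(Hw).

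The setting of the genes differed from that of other genes. The members are short, with a median span of 909 bp against 2161 bp for all protein-coding genes, and 72 of 73 (98.6%) have an end of another coding gene within 500 bp, against 70.9% of all protein-coding genes. Among all protein-coding genes with such a neighbour, 42.0% were bound by CP190, close to the 44.4% of the 72 members with a neighbour. For Pita the corresponding shares were 19.4% of members and 12.7% of genes with a neighbour in adults, and 19.4% and 12.0% in larvae. This comparison was added after the data were seen. For Su(Hw), genes with a neighbour were bound in 5.98% of cases in adults and 7.25% in larvae.

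The members' higher share for Pita was absent from the more significant adult peaks and smaller among the larval ones. With only the more significant part of each list, the peaks at or above its median −log10 q, adult Pita was at 5 members (6.85%) against 6.88% of all protein-coding genes, and larval Pita at 6 members (8.22%) against 6.13%. CP190 was then at 13 members (17.8%) against 18.2%, and any list at 15 of 73 against 22.6%, so that the share in any list was then below that of all genes. The median fold of the highest Pita peak per gene was 5.10 at the 14 members bound in adults, against 11.5 at all 1546 bound protein-coding genes. In larvae it was 3.44 at 14 members against 8.21 at 1460 genes. For CP190 it was 4.41 at 32 members and 5.09 at 4977 genes.

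**Figure D2:**
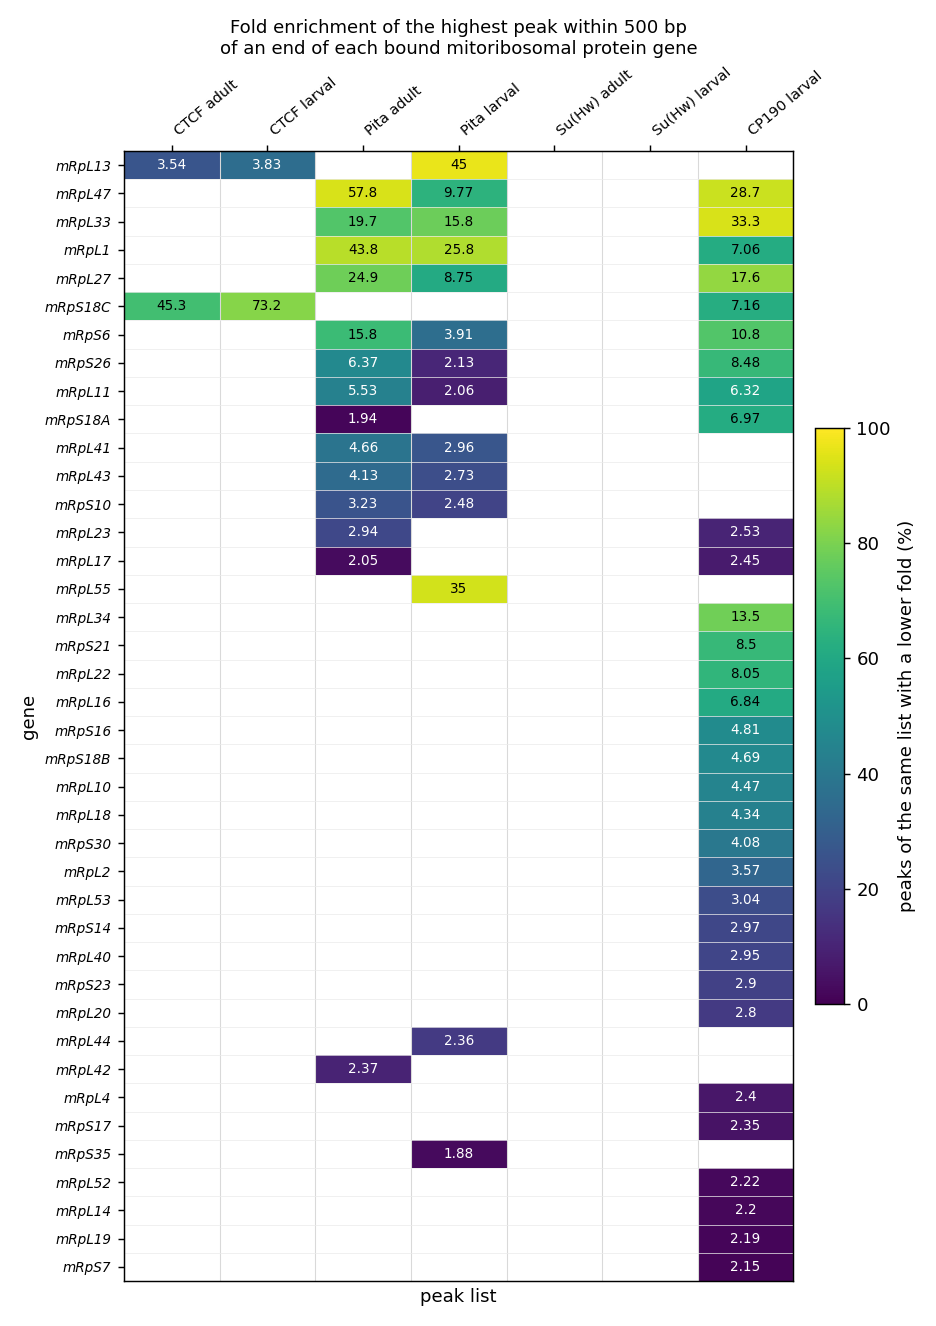
Fold enrichment (printed) of the highest peak within 500 bp of an end for each of the 40 bound genes (rows) in the 7 lists (columns). Colour gives the percent of peaks of the same list with a lower fold, and empty cells have no peak. The column for Pita in adults is led by mRpL47 with 57.8-fold, that for Pita in larvae by mRpL13 with 45.0-fold, and both Su(Hw) columns are empty.

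In larvae the proteins formed few combinations at these genes. CP190 without a C2H2 protein was found at 24 members (32.9%, against 20.0% of all protein-coding genes). Combinations were not counted among genes with a close neighbour, the setting of 72 of the 73 members. Pita with CP190 was found at 7 (9.59%, against 6.37%) and Pita alone at 6 (8.22%, against 1.63%). Of the genes with Pita alone, mRpL55 had a larval fold of 35.0, while mRpL41, mRpL43, mRpL44, mRpS10 and mRpS35 had weak peaks of 1.88 to 2.96. A CP190 peak at mRpL41 and a larval CTCF peak at mRpL55 lay 545 and 574 bp away, just outside the distance used. CTCF with CP190 was found at mRpS18C (1 gene, 1.37%, against 2.27%) and CTCF with Pita at mRpL13 (1 gene, 1.37%, against 0.151%). The remaining 34 members had no larval peak (46.6%, against 59.2%). Of 73 members 0 carried 3 or more of the 4 proteins in larvae, a share that was also low over all protein-coding genes (2.67%), and a C2H2 protein stood with CP190 at 8 of 73, against 15.7% of all protein-coding genes. A larval Pita peak went with a CP190 peak at 7 of 14 members (50.0%), whereas over all protein-coding genes it did so at 1190 of 1460 (81.5%). The 7 members without CP190 were mRpL13, mRpL41, mRpL43, mRpL44, mRpL55, mRpS10 and mRpS35.

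The 7 genes with Pita and CP190 in larvae also had a Pita peak in adults. They were mRpL1, mRpL11, mRpL27, mRpL33 and mRpL47 of the large subunit and mRpS6 and mRpS26 of the small subunit. No source used here says whether folds of different lists share a scale, so at genes with Pita at both stages the place of each peak in its own list stands beside its fold.

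mRpL47 encodes the counterpart of a bacterial protein at the exit of the tunnel through which the new chain leaves the ribosome. The gene lies at bases 9514822 to 9515908 of 3R in the dm6 build. Its Pita peak had a fold of 57.8 in adults and 9.77 in larvae, and its CP190 peak 28.7. In adults 94.0% of Pita peaks of the list were lower, in larvae 64.3%, and 91.8% of CP190 peaks were lower. The adult and larval Pita summits fell on the same base, 57 bp outside the gene, and 3 bp from the CP190 summit. An end of CG8176 was 42 bp from the Pita summits, closer than that of mRpL47.

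mRpL33, whose bacterial counterpart lies near the site where spent tRNA leaves, had the highest CP190 peak of the members. Its fold was 33.3 for CP190, 19.7 for Pita in adults and 15.8 for Pita in larvae. It was the only gene of the 10 bound by Pita at both stages whose Pita peak stood lower in the adult list, with 73.0% of adult peaks and 77.7% of larval peaks below it. The peaks reached into the gene (bases 4321764 to 4322231 of X), but their summits lay 219 to 255 bp outside it, nearer to an end of norpA, which encodes the phospholipase C of phototransduction.

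mRpL1 encodes the counterpart of the bacterial protein of the mobile stalk beside the exit tRNA. Its Pita folds were 43.8 in adults and 25.8 in larvae, with 89.1% and 88.2% of peaks in their lists lower, while its CP190 peak had a fold of 7.06, with 61.7% lower. The 3 summits lay within 4 bp of each other, 52 to 56 bp outside the gene at bases 8301440 to 8302770 of 3R.

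mRpL27, whose bacterial counterpart reaches toward the catalytic centre, carried 2 Pita peaks at each stage. The higher had a fold of 24.9 in adults and 8.75 in larvae, with 78.0% and 60.8% of peaks in their lists lower, and its summits inside the gene, 249 and 254 bp from its lower-numbered end (bases 4458595 to 4459638 of 2L). The CP190 peak of 17.6-fold, higher than 83.8% of its list, had its summit 230 bp inside the same end. The higher Pita peak of each stage and the CP190 peak also lie within 500 bp of an end of RpL27A, which encodes a protein of the cytoplasmic ribosome. The lower Pita peaks, with folds of 2.36 in adults and 2.14 in larvae, were nearest to an end of CG15435 beyond the other end of mRpL27.

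The remaining genes of this set had lower folds. mRpS6, whose bacterial counterpart sits on the platform of the small subunit, had Pita folds of 15.8 in adults and 3.91 in larvae and a CP190 fold of 10.8, with 68.0%, 35.6% and 72.9% of peaks in their lists lower. For mRpS26, a subunit with no bacterial counterpart, they were 6.37, 2.13 and 8.48, with 46.9%, 10.9% and 66.8% lower. For mRpL11, the counterpart of the protein at the base of the stalk that meets the translation factors, they were 5.53, 2.06 and 6.32, with 43.7%, 8.24% and 58.3% lower. All their summits lay outside these genes and nearer to an end of another coding gene, Cip4 at mRpS6, CG13698 at mRpS26 and HtrA2, a mitochondrial protease gene, at mRpL11.

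Larval Pita and CP190 peaks at the 7 genes with both coincided. Both peaks had to lie within 500 bp of an end of the same short gene, which makes overlap more likely. With the highest peak of a list taken at each gene, all 7 larval Pita peaks overlapped the CP190 peak, with summits 1 to 70 bp apart (median 25 bp). Adult Pita peaks overlapped the CP190 peak at 8 of the 10 members with both, with summits 3 to 1426 bp apart (median 27.5 bp). Adult and larval Pita peaks overlapped at all 10 members bound at both stages, with summits 0 to 70 bp apart (median 4.5 bp). Overlap was not measured over all protein-coding genes. The 10 members bound at both stages were 13.7% of members, against 8.72% of all protein-coding genes bound by Pita at both stages. The 3 genes of that group without CP190 were mRpL41 and mRpL43, with no bacterial counterpart, and mRpS10, of the head of the small subunit. Their Pita folds were 4.66, 4.13 and 3.23 in adults, with 38.3%, 34.6% and 26.0% of the adult list lower, and 2.96, 2.73 and 2.48 in larvae, with 26.9%, 23.7% and 20.0% of the larval list lower.

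Adult Pita folds were above larval ones at all 10 members bound at both stages. The ratio of adult to larval fold ranged from 1.24 at mRpL33 to 5.92 at mRpL47, with a median of 2.19. The same held for 90.0% of the 1216 protein-coding genes with Pita at both stages, whose median ratio was 1.86. By rank within the list the adult peak stood higher at 9 of 10 members, by a median of 14.3 percentage points over all 10, and at 74.0% of the 1216 genes, by a median of 7.41. The 2 inputs of the larval Pita list differed more than those of the adult list. The second-to-first ratio of −log10 p had a median of 2.17 at the larval Pita peaks of the members (1.37 to 42.8), against 0.989 at the adult ones (0.637 to 1.65), and the deposited p was that of the first input for every peak. The part of this difference in the fold ratios was not tested.

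**Figure D3:**
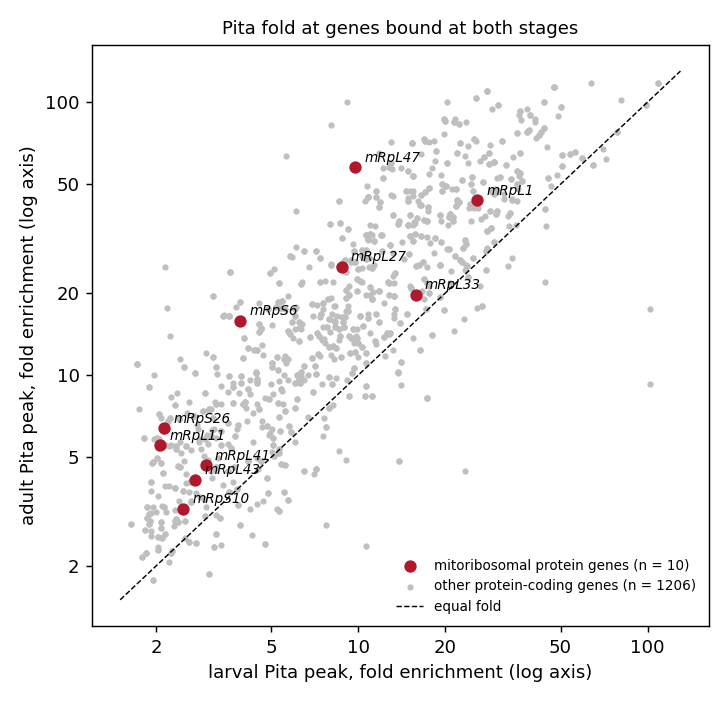
Fold enrichment of the highest Pita peak per gene in adults (vertical, log axis) and in larvae (horizontal, log axis) at the 10 mitochondrial ribosomal protein genes (red) and the other protein-coding genes (grey) bound at both stages, with the dashed line at equal fold. All 10 red points lie above the line, mRpL47 farthest from it.

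Pita was listed at 1 stage only at 8 members. In adults these were mRpL17, mRpL23, mRpL42 and mRpS18A (5.48%, against 2.37% of all protein-coding genes), with folds of 2.05, 2.94, 2.37 and 1.94. In larvae they were mRpL13, mRpL44, mRpL55 and mRpS35 (5.48%, against 1.75%), with folds of 45.0, 2.36, 35.0 and 1.88. So 6 of the 8 were weak peaks, and mRpL13 and mRpL55 were strong ones. Absence from a list is not absence of signal. At mRpL17, mRpL23 and mRpS18A a CP190 peak was also within reach of the gene, with folds of 2.45, 2.53 and 6.97, but at mRpL23 and mRpS18A it did not overlap the Pita peak and the summits were 1426 and 1396 bp apart.

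mRpL13, whose bacterial counterpart is needed early in assembly of the large subunit, was the only member with CTCF and Pita. Its larval Pita peak of 45.0-fold, higher than 96.5% of that list, covered bases 18858952 to 18859713 of 2L. The CTCF peaks there were low, with folds of 3.54 in adults and 3.83 in larvae, and the larval CTCF and Pita summits were 12 bp apart. The nearest adult Pita peak to the gene was 26692 bp away and the nearest CP190 peak 17682 bp away. mRpL13 lies within the span of CG10602 and shares its higher-numbered end at base 18859248, and all 3 summits lay 92 to 121 bp beyond that common end.

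mRpL55, a subunit without a bacterial counterpart, had a larval Pita peak of 35.0-fold, higher than 93.0% of that list. This peak came within 472 bp of the gene, but its summit was 1451 bp from it and 85 bp from an end of ATPsynD, which encodes a subunit of ATP synthase. Its nearest adult Pita peak was 76781 bp away. Strong CTCF peaks of 89.2-fold in adults and 94.7-fold in larvae came to 542 and 574 bp from the gene, just outside the distance used.

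These 2 genes were the only members whose larval Pita peak was in the top 10% of the list, and both lacked an adult Pita and a CP190 peak. In a split by rank chosen after the values were seen, among all 181 protein-coding genes with a larval Pita peak in the top 10%, 57 lacked an adult Pita peak (31.5%), 43 lacked CP190 (23.8%) and 30 lacked both (16.6%). Lacking an adult Pita peak was less frequent, at 5.47% of 677 genes, for larval peaks between the median and the top 10%, but below the median it was 24.9% of 602 genes. There 26.6% lacked CP190, so neither lack by itself was particular to the highest peaks. Lacking both was most frequent in the top 10%, against 3.99% between the median and the top 10% and 8.8% below the median. Of the 8 members below the median, 5 lacked CP190 and 2 lacked both. The 4 members between the median and the top 10%, mRpL1, mRpL27, mRpL33 and mRpL47, all had both.

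mRpS18C, which encodes a mitochondrial counterpart of a protein of the bacterial small-subunit platform, was the other gene with CTCF. The CTCF fold was 45.3 in adults and 73.2 in larvae, with 69.7% and 81.8% of peaks in their lists lower, and the CP190 fold was 7.16. The larval CTCF and CP190 summits were 36 bp apart. All summits lay 661 to 702 bp outside mRpS18C and 55 to 96 bp from an end of CG15536, so CG15536 had the nearer end. Its relatives mRpS18A and mRpS18B had CP190 without CTCF, with folds of 6.97 and 4.69.

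CP190 alone marked the widest set. It was the only protein in any list at 21 members, and at 19 of the 24 members with CP190 and no larval C2H2 protein its fold was under 5. Shares over all protein-coding genes were not computed for these counts. Low folds were not particular to the members, as the median CP190 fold was 4.24 at the 3587 protein-coding genes with CP190 and no Pita peak. The highest of these 24 were mRpL34 with a fold of 13.5, mRpS21 with 8.50 and mRpL22, of the wall of the exit tunnel, with 8.05. mRpL16, which helps to place tRNA in bacteria, had 6.84. The lowest were mRpL14 with 2.20, mRpL19 with 2.19 and mRpS7, of the head of the small subunit, with 2.15, below which lay 1.80%, 1.49% and 1.02% of the CP190 list. mRpL2 and mRpL4, whose bacterial counterparts line the catalytic centre and the exit tunnel, had 3.57 and 2.40.

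CP190 folds were higher at members that also had Pita. Both were listed at 10 members when Pita at either stage counted (13.7%, against 9.97% of all protein-coding genes). The 10 include mRpL23 and mRpS18A, where the Pita and CP190 peaks did not overlap. At these 10 the median CP190 fold was 7.77 (2.45 to 33.3), and at the 22 without Pita it was 3.31 (2.15 to 13.5), so that the ranges overlapped. Over all protein-coding genes the medians were 11.3 at 1390 genes with Pita and 4.24 at 3587 without. In the same way the adult Pita fold had a median of 11.1 at the 10 members with CP190, and 3.68 at the 4 without. Over all protein-coding genes these adult medians were 14.7 and 3.72, and the larval ones 8.85 and 3.98. Among members the larval Pita medians were 8.75 at 7 with CP190, and 2.73 at 7 without. The 7 without CP190 held the highest larval value, that of mRpL13.

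**Figure D4:**
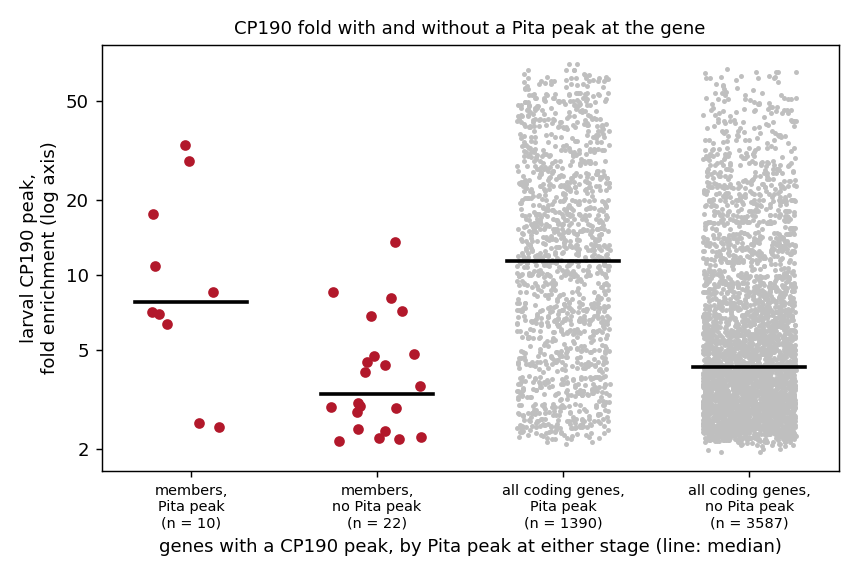
Fold enrichment of the highest larval CP190 peak per gene (vertical, log axis) at mitochondrial ribosomal protein genes (red) and at all protein-coding genes with a CP190 peak (grey), split by a Pita peak at either stage, with lines at the medians. The red medians are 7.77 with Pita and 3.31 without, the grey ones 11.3 and 4.24.

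Most peaks covered an end of the gene, with the summit outside it and in reach of a neighbour. Of the 67 pairs of a member and a peak, 55 peaks covered an end of the gene and 60 summits lay at or outside its ends. The distance from summit to the nearer gene end had a median of 85 bp for CP190, 202 bp for Pita in adults and 206 bp for Pita in larvae. At 66 of the 67 pairs the peak was also within 500 bp of an end of another coding gene, the exception being CP190 at mRpL4. As 72 of the 73 members have such a neighbour, this count says little about the peaks themselves. Peak positions were not summarised for all protein-coding genes. The summit was nearer to another gene's end than to the member's in 35 pairs. The member's end was the nearest, alone or shared, for 20 of 33 CP190 peaks, 5 of 15 adult Pita peaks and 5 of 15 larval Pita peaks. The reference used gives no strand, so starts and ends of genes could not be told apart, nor could exons.

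**Figure D5:**
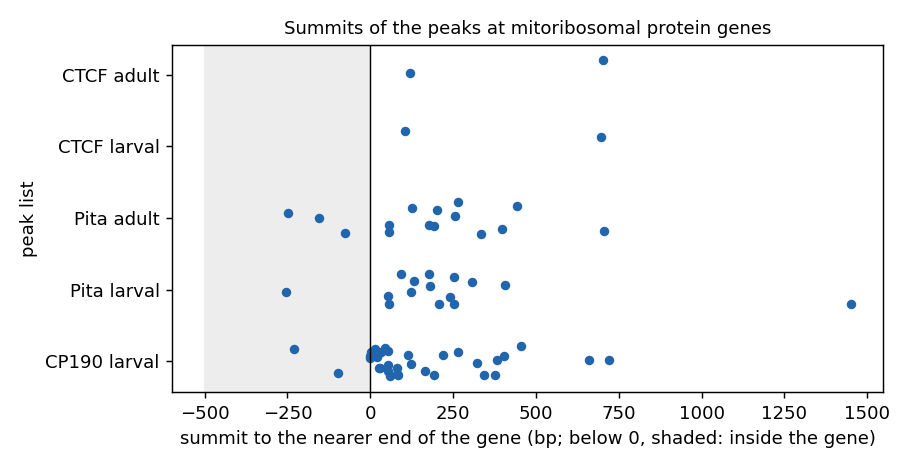
Distance from each peak summit to the nearer end of the mitochondrial ribosomal protein gene it was assigned to (horizontal axis, bp, negative and shaded inside the gene), 1 point for each of the 67 pairs of gene and peak, by list. Of 33 CP190 summits 22 lie within 200 bp of an end, and the farthest point, at 1451 bp, is the larval Pita peak at mRpL55.

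Both subunits were bound in similar proportion. CP190 was at 20 of 47 mRpL genes (42.6%) and 12 of 26 mRpS genes (46.2%), and at least 1 list bound 26 mRpL genes (55.3%) and 14 mRpS genes (53.8%). Pita at either stage was at 18 members (24.7%, against 12.8% of all protein-coding genes), of which 13 were mRpL genes (27.7% of 47) and 5 mRpS genes (19.2% of 26). The highest Pita folds of both stages were all at mRpL genes, mRpL47, mRpL1 and mRpL27 in adults and mRpL13, mRpL55 and mRpL1 in larvae.

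No list bound 33 members. They include mRpL12, the counterpart of the bacterial stalk protein that calls in translation factors, mRpL3 and mRpL24, of the large subunit, and mRpS29, a GTP-binding protein of the small subunit. Their nearest CP190 peak was a median of 4337 bp away (1061 to 572287 bp), and their nearest Pita peak a median of 37487 bp away in adults and 21936 bp in larvae. The member closest to the limit from inside was mRpL23, with a CP190 peak of 2.53-fold at 487 bp, and after mRpL55 with CTCF the closest from outside was mRpL41, with a CP190 peak of 3.55-fold at 545 bp.

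Other nuclear genes of mitochondrial translation and gene expression, a list of 31, had shares for Pita and CP190 near those of all protein-coding genes. They comprise tko and bonsai, which encode small-subunit proteins under other names, translation and transcription factors and the mitochondrial aminoacyl-tRNA synthetases. Pita was at 3 of 31 at both stages (9.68%), against 11.1% of all protein-coding genes in adults and 10.5% in larvae. CP190 was at 11 (35.5%, against 35.7%). CTCF was at 2 at both stages (6.45%, against 4.09% in adults and 5.19% in larvae). Su(Hw) was at 1 at both stages (3.23%, against 7.23% in adults and 8.46% in larvae). tko had Pita folds of 29.1 in adults and 23.0 in larvae and a CP190 fold of 24.6. For mEFTs, an elongation factor, they were 20.0, 17.6 and 11.3. For bsf, an RNA-binding protein of mitochondria, they were 15.4, 4.54 and 7.45. mIF2, an initiation factor, carried CTCF at 69.2-fold in adults and 76.4-fold in larvae with CP190 at 31.0-fold. ArgRS-m carried Su(Hw), with 59.7-fold in adults and 45.9-fold in larvae.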

How the data were processed

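The 7 deposited lists follow the 20-column output of an irreproducible discovery rate (IDR) comparison of 2 input lists, which are not tied to samples. Per the submitters' processing notes the genome was dm6, and MACS2, Bowtie2, deepTools, bedtools, cutadapt and Picard were among the tools, with steps and settings not given in the sources used here. The protocol in the labels describes larvae only. The authors' deposited values used are the fold enrichment (a linear ratio to an unnamed control), −log10 p and −log10 q, and the IDR score. Read depth is unknown. Lists held 674 to 4220 peaks on the assembled nuclear chromosomes, and peaks elsewhere were left out. The highest IDR at a member was 0.00994.

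Gene spans came from RefSeq (Release 6 plus ISO1 MT, the assembly of dm6), which gives no strand. With several peaks of a list at a gene the highest fold was used. The symbol rule used no binding value, but the gene family and the lists of other genes were chosen with earlier results of these data known. Calls were checked on simulated peaks at known distances. Every bound member could be named, with full values for members with CP190 and a C2H2 protein, the highest of each list and genes with Pita at 1 stage. Of 18 further genes named singly 16 were found, and 15 came from the ending RS-m. The planned restriction to gene starts, promoter sequences and motif counts were not run, as no strand or sequence was used here. Python 3.11.15, numpy 2.4.6, pandas 2.3.3 and matplotlib 3.10.9 were used.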

Additional observations from a re-analysis of the deposited data

How the results depend on the processing

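Of 61 comparisons with an alternative setting, 19 could not change by construction: an IDR of at most 0.01, which every peak at a member already met, a count of 0 for Su(Hw) under stricter settings, and the shortest list at equal length. Of the other 42, 25 stayed within 1.5 times the reported count. With a peak's summit in place of any base within 500 bp, CTCF was at 1 member in adults (1.37%, against 3.06% of all protein-coding genes). In larvae it was also at 1 (1.37%, against 3.8%). With a distance of 1000 bp larval CTCF was at 4 members (5.48%, against 6.05%). With the more significant part of each list, CTCF was at 1 member in adults (1.37%, against 2.65%) and 1 in larvae (1.37%, against 3.44%). Pita was at 5 in adults (6.85%, against 6.88%), 6 in larvae (8.22%, against 6.13%) and 4 at both stages. CP190 was at 13 (17.8%, against 18.2%) and a C2H2 protein with CP190 in larvae at 5. Any list was at 15 of 73 against 22.6% of all protein-coding genes. With every list cut to its 674 most significant peaks, Pita was at 5 members in adults (6.85%, against 6.33% of all protein-coding genes), 6 in larvae (8.22%, against 6.75%) and 4 at both stages, CP190 at 3 (4.11%, against 5.93%), a C2H2 protein with CP190 in larvae at 3, and any list at 8 of 73 against 15.0%. The members' share in any list was thus above that of all genes in the full lists and below it in both of these settings. Both settings hold fewer peaks by construction. For Pita at both stages and a C2H2 protein with CP190, shares over all genes were not computed in these settings. With 1000 bp Su(Hw) was still at 0 members, against 9.95% of all protein-coding genes in adults and 11.1% in larvae. Requiring C2H2 and CP190 peaks to overlap left the count of 8 genes with both in larvae as it was. The alternative of gene starts only was not run, since the reference used gives no strand. No paired analysis was possible because the lists have no columns per sample, and for the same reason no replicate could be left out. The depth of the libraries, which limits what a list can hold, is unknown.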

Other observations

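Cytoplasmic ribosomal protein genes, a list of 87 by symbol, and 88 respiratory chain genes, which the products of the mitochondrial ribosome join, are set beside the 73 mitochondrial ones without a test of the difference. The sets share some peaks, as at mRpL27 with RpL27A and at mRpL55 with ATPsynD. Pita was at 19.2% of mitochondrial and 32.2% of cytoplasmic ribosomal protein genes at each stage, and CP190 at 43.8% and 80.5%. Of all protein-coding genes, 11.1% had Pita in adults, 10.5% had Pita in larvae and 35.7% had CP190. The respiratory chain genes had Pita at 6.82% in adults and 7.95% in larvae and CP190 at 48.9%. Su(Hw), absent from the mitochondrial ribosomal protein genes, was at 4.60% of cytoplasmic ribosomal protein genes and 3.41% of respiratory chain genes in adults. The share over all protein-coding genes was 7.23%.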
